A study of Caenorhabditis elegans with 3 samples.

Results

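The lysozyme genes lys and ilys and the saposin-like genes spp of *Caenorhabditis elegans* were examined in hermaphrodites at the late L4 stage, the end of the fourth and final larval stage of the worm. Members were the genes whose symbol in the platform annotation consists of lys, ilys or spp and a number, which gave 32 genes on 33 of the 20000 array features: 10 lys, 6 ilys and 16 spp genes. Of these, 31 were measured on all 3 arrays and entered the test, and *ilys-1* was measured on preps 1 and 2 only. No filter on low values was applied.

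Each of the 3 two-colour arrays set RNA of 1 late L4 preparation (channel 2; prep 1, 2 or 3) against a wild-type mixed reference (channel 1), per the labels, which name the molecule as total RNA in one field and the sources as mRNA in another. The labels give no strain, age in hours, food or culture for the late L4 animals, do not say what the reference was mixed from, and do not give the cultures behind the preps, so p-values cover the spread between these preps, and that spread may be technical. Late L4 RNA was in channel 2 on every array, and the dyes are not named. A dye effect specific to a gene and a difference between the RNAs therefore cannot be told apart. The titles carry a different date for each array, and date and prep cannot be told apart either. Positive log2 ratios stand for higher levels in late L4, which is the likely direction, taken from how the descriptions order the RNAs, and not a certain one. With the sign turned, every higher would read lower and every lower higher: *lys-3* would have the highest and *lys-4* the lowest mean of the lys genes, and 15 of 16 spp means would be positive.

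Lysozymes cut the sugar backbone of bacterial peptidoglycan. The worm carries lys genes of a type related to those of amoebae and ilys genes of the invertebrate type. The spp genes encode small saposin-domain proteins, some of which (the caenopores) open pores in bacterial membranes. Many genes of these families are expressed in the intestine, where their products act on the bacteria that the animal eats and on pathogens, and several are known targets of the insulin, BMP-like and p38 signalling pathways.

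The 3 families did not move as one. Of the 31 genes tested, 7 were higher and 8 lower in late L4 than in the reference (limma, Benjamini-Hochberg adjusted p under 0.05 over 19292 rows), while 12% of all rows were higher and 10.8% lower. Of 10 lys genes, 5 rose, 2 fell and 3 did not pass. Of 16 spp genes, 1 rose, 6 fell and 9 did not pass, and of 5 ilys genes 1 rose and 0 fell (2 lower at an unadjusted p under 0.05). Without prep 2, 4 members were higher (2047 of all rows), and without prep 3, 5 were lower (1357 of all rows). Differences of at least 2-fold were seen in 4 higher and 6 lower members, where 8.6% and 6.05% of all rows passed in each direction. The median mean log2 ratio was 0.50 over the lys genes, -0.29 over the ilys genes and -0.48 over the spp genes, and -0.03 over all rows. The lys median was 0.31 without prep 2, and the ilys median was -0.017 without prep 3, where *ilys-1* entered. The labels name no tissue, so the RNA is taken to be of whole animals. In such RNA, the intestine's share of the total and the level of an RNA within its cells cannot be told apart.

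**Figure D1:**
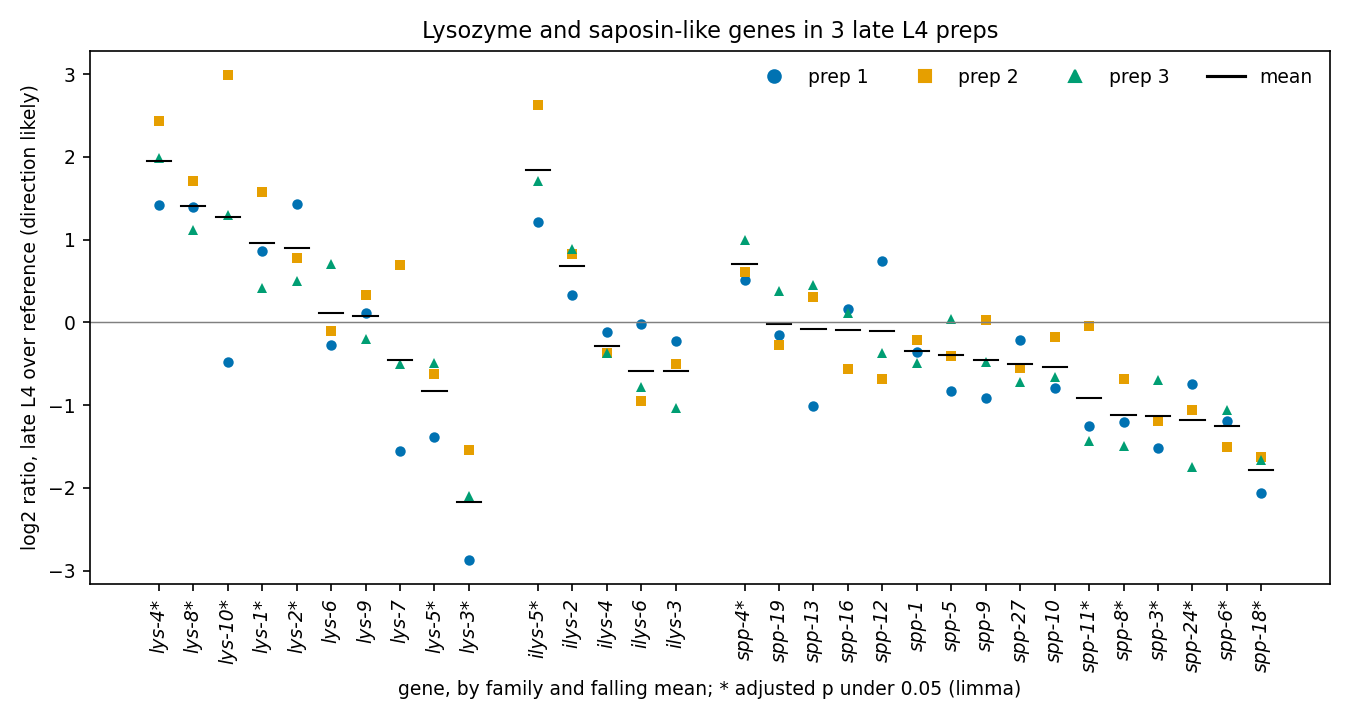
Log2 ratio of late L4 over reference (vertical axis) for the 31 genes measured on all 3 arrays, grouped by family and ordered by falling mean; points are the 3 preps, black lines their means, and asterisks mark an adjusted p under 0.05 in limma. The lys genes run from *lys-4* at 1.95 to *lys-3* at -2.17, while 15 of the 16 spp means lie below 0.

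Among the lys genes, *lys-4* (F58B3.1, chromosome IV) had the highest mean in the likely direction, with log2 ratios of 1.42, 2.44 and 1.99 on preps 1, 2 and 3. All 3 preps lay well above 0. This was a 3.87-fold higher level (log2 ratio 1.95 ± 0.51, SD, n = 3; 95% interval 1.40 to 2.50; limma, adjusted p = 5.10e-05). *lys-8* (C17G10.5, chromosome II), a known target of insulin and BMP-like signalling, had ratios of 1.39, 1.71 and 1.12, the closest agreement between preps of any lys gene that was called. It was 2.66-fold higher (1.41 ± 0.30; adjusted p = 0.000519). The calls of both genes held when any 1 prep was left out.

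The intestinal genes *lys-1* (Y22F5A.4) and *lys-2* (Y22F5A.5), next to each other on chromosome V, rose less. *lys-1* had log2 ratios of 0.87, 1.58 and 0.41 and *lys-2* ratios of 1.43, 0.78 and 0.50, so that all 6 values lay above 0 but the highest prep was not the same for both. They were 1.94-fold (0.95 ± 0.59; adjusted p = 0.0163) and 1.87-fold higher (0.90 ± 0.48; limma, adjusted p = 0.0183). Leaving out prep 2 ended the call of *lys-1* (adjusted p = 0.208), and leaving out prep 1 that of *lys-2* (adjusted p = 0.183).

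*lys-10* (F17E9.11, chromosome IV) passed the test but was not the same from prep to prep. Its log2 ratios were -0.48, 2.99 and 1.30 on preps 1, 2 and 3, so prep 1 lay on the other side of 0. Its mean was 2.41-fold higher (1.27 ± 1.74, SD, n = 3; limma, adjusted p = 0.0484). Without prep 1 the mean was 2.14 (4.42-fold), without prep 2 it was 0.41 (1.33-fold, adjusted p = 0.503) and without prep 3 it was 1.25 (adjusted p = 0.155). Median centring of the arrays also ended the call (adjusted p = 0.0945), as did robust eBayes (adjusted p = 0.359). Over all its alternatives the adjusted p ran from 3.38e-05, without prep 1, to 0.566.

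The lower lys genes were *lys-3* (Y22F5A.6), the next gene after *lys-2* on chromosome V, and *lys-5* (F58B3.2), the next gene after *lys-4* on chromosome IV. *lys-3* had log2 ratios of -2.87, -1.54 and -2.10, and no prep came near 0. At 4.50-fold lower (-2.17 ± 0.67, SD, n = 3; 95% interval -2.75 to -1.58; limma, adjusted p = 3.30e-05) it had the largest absolute mean of the 31 genes. *lys-5* had ratios of -1.39, -0.62 and -0.49, with prep 1 the lowest. It was 1.78-fold lower (-0.83 ± 0.49; adjusted p = 0.0285), which no longer passed without prep 1 (adjusted p = 0.26) or under median centring (adjusted p = 0.0555).

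The other lys genes did not pass. *lys-7* (C02A12.4, chromosome V), a lysozyme gene of pathogen defence and a known target of the insulin pathway factor DAF-16, had log2 ratios of -1.56, 0.70 and -0.51. The preps lay on both sides of 0 and the mean was -0.46 ± 1.13 (SD, n = 3; limma, adjusted p = 0.382). It became 0.093 without prep 1 and -1.03 without prep 2, where the gene passed as lower (adjusted p = 0.0167). *lys-6* (F58B3.3) had ratios of -0.27, -0.10 and 0.70, with only prep 3 above 0. *lys-9* (C54C8.6, chromosome I) had 2 features, and the one measured on all 3 arrays gave 0.12, 0.33 and -0.20. The other feature gave -2.35 on prep 1 and -0.02 on prep 2, so on prep 1 the 2 features of this gene did not match.

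**Figure D2:**
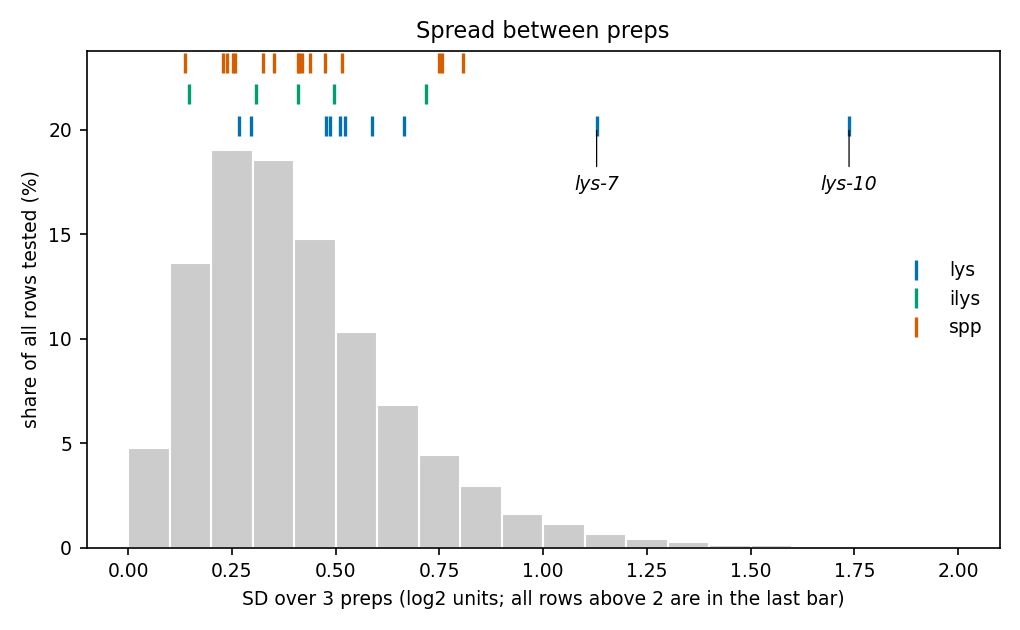
Bars show the share of all 19292 rows (vertical axis, %) by SD over the 3 preps (horizontal axis, log2 units); ticks above mark the 10 lys, 5 ilys and 16 spp genes. *lys-10* at 1.74 and *lys-7* at 1.13 lie far to the right of the median of all rows, 0.36.

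Preps differed more for *lys-7* and *lys-10* than for the other members. The SD over preps was 1.74 log2 units for *lys-10*, at percentile 99.8 of all rows, and 1.13 for *lys-7*, at percentile 98.3. The median SD was 0.52 over the lys genes, 0.41 over the spp genes and 0.36 over all rows. In both genes prep 1 was the lowest and prep 2 the highest. The same order was seen in the mean over the 10 lys genes, at -0.13, 0.83 and 0.27 on preps 1, 2 and 3. It was also seen in the mean over the 16 spp genes, at -0.68, -0.50 and -0.55, and in the means of 4 of the 10 other gene lists (pharynx, epidermis and neuron markers and immune regulators). Its part in the lys values was not tested. Over all rows, the medians on preps 1, 2 and 3 were 0.01, -0.10 and -0.06. The means over all rows were 0.04, 0.03 and 0.02, so neither had that order.

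Of the invertebrate-type lysozyme genes, *ilys-5* (F22A3.6, chromosome X) was the one that rose. Its log2 ratios were 1.21, 2.63 and 1.71, all above 0. This was 3.60-fold higher (1.85 ± 0.72, SD, n = 3; limma, adjusted p = 0.000168), and the call held without any 1 prep. *ilys-2* (C45G7.2) also had 3 ratios above 0, at 0.33, 0.83 and 0.88. It did not pass (mean 0.68 ± 0.31; adjusted p = 0.058). *ilys-3* (C45G7.3), which encodes a lysozyme of the pharynx and intestine needed to break down ingested bacteria, had ratios of -0.22, -0.50 and -1.03. All lay below 0 and the mean of -0.59 ± 0.41 did not pass (adjusted p = 0.114).

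*ilys-6* (W03D2.7) had log2 ratios of -0.02, -0.95 and -0.78, and *ilys-4* (C55F2.2) had -0.12, -0.37 and -0.37. All 6 values were below 0 and neither gene passed (limma, adjusted p = 0.125 and 0.449). *ilys-1* (C45G7.1) was measured at 0.35 on prep 1 and 0.07 on prep 2. Over these 2 preps its mean was 0.21, which did not pass (limma, adjusted p = 0.689).

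The spp genes lay mostly below 0. The mean log2 ratio was negative for 15 of 16, where 52.3% of all rows were negative, and it was negative for 14 under median centring and for 13 under centring with scaling, when *spp-19* and then also *spp-13* turned positive and 48.1% and 48.0% of all rows were negative. Without prep 2, 12 of 16 were negative. On all 3 arrays, 9 of 16 were below 0, against 27.9% of all rows, and 1 was above 0, against 23.2%. The median of the family was -0.81, -0.48 and -0.58 on preps 1, 2 and 3, a narrower range than that of the lys genes (-0.08, 0.74 and 0.46).

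*spp-18* (F27C8.4, chromosome IV) was the lowest of the family, with log2 ratios of -2.06, -1.63 and -1.67. The 3 preps lay within 0.43 log2 units of each other. It was 3.45-fold lower (-1.79 ± 0.24, SD, n = 3; 95% interval -2.30 to -1.27; limma, adjusted p = 5.92e-05). *spp-6* (T08A9.10) and *spp-3* (T08A9.7), both on chromosome X, were 2.39-fold (-1.26 ± 0.23; adjusted p = 0.00119) and 2.20-fold lower (-1.14 ± 0.42; adjusted p = 0.00361). Ratios were -1.19, -1.51 and -1.06 for *spp-6* and -1.52, -1.19 and -0.69 for *spp-3*. No prep of either gene reached 0, and these 3 calls held without any 1 prep.

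*spp-24* (F23F1.7, chromosome II) had log2 ratios of -0.74, -1.06 and -1.75, with prep 3 the lowest. It was 2.27-fold lower (-1.18 ± 0.52, SD, n = 3; limma, adjusted p = 0.00342), and without prep 3 its adjusted p was 0.0625. *spp-8* (C28C12.5, chromosome IV) had -1.20, -0.68 and -1.49, again with prep 3 the lowest. It was 2.18-fold lower (-1.13 ± 0.41; limma, adjusted p = 0.00385), and without prep 3 its adjusted p was 0.0552. *spp-11* (T25D10.3, chromosome II) was near 0 on prep 2, with ratios of -1.26, -0.05 and -1.43. It was 1.88-fold lower (-0.91 ± 0.76; limma, adjusted p = 0.0303) and lost its call without prep 1 (adjusted p = 0.147), without prep 3 (adjusted p = 0.238) and under median centring (adjusted p = 0.0667).

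*spp-4* (T08A9.8, chromosome X) was the one spp gene that rose. Its log2 ratios were 0.51, 0.61 and 0.99, all above 0 and close together. The difference was small, 1.63-fold (0.70 ± 0.25, SD, n = 3; limma, adjusted p = 0.0477). The call was lost without prep 1, 2 or 3 (adjusted p = 0.0806, 0.117 and 0.25) and when features on 2 arrays were kept (adjusted p = 0.0502).

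The genes *spp-1*, *spp-5* and *spp-12* did not pass the test. *spp-1* (T07C4.4, chromosome III), whose product forms pores and which is a target of insulin signalling, had log2 ratios of -0.35, -0.21 and -0.49. All 3 were slightly below 0, and the mean of -0.35 ± 0.14 (SD, n = 3; 95% interval -0.86 to 0.16; limma, adjusted p = 0.339) did not pass. *spp-5* (T08A9.9, chromosome X), which encodes a caenopore that kills bacteria in the gut, had -0.83, -0.41 and 0.05. Its interval, -0.94 to 0.14, includes 0 (adjusted p = 0.304). *spp-12* (T22G5.7, chromosome V), a pore-forming member expressed in pharyngeal neurons, had 0.75, -0.68 and -0.37, on both sides of 0 (adjusted p = 0.855).

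Of the remaining spp genes, *spp-10* (C28C12.7), which encodes the prosaposin-like lysosomal member, had log2 ratios of -0.79, -0.18 and -0.66. All 3 were below 0 without passing (limma, adjusted p = 0.133). *spp-9* (T25C12.2), a gene repressed by BMP-like signalling, had -0.92, 0.03 and -0.48 and did not pass (adjusted p = 0.238). *spp-27* (K04A8.21) was below 0 on all preps, at -0.22, -0.56 and -0.72 (adjusted p = 0.166). The others had preps on both sides of 0: *spp-13* (F08F1.6) ran from -1.01 on prep 1 to 0.45 on prep 3, *spp-16* (F32D8.9) from -0.57 to 0.17 and *spp-19* (K04A8.9) from -0.28 to 0.38.

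When the families were set side by side on each array, the mean over the 10 lys genes was above that over the 16 spp genes on every prep. The lys means were -0.13, 0.83 and 0.27 and the spp means -0.68, -0.50 and -0.55 on preps 1, 2 and 3. The lys mean thus moved over a range of about a log2 unit between preps (SD 0.48), and the spp mean hardly moved (SD 0.09). Parts of the spp family did move: the 6 genes on X had means of -0.83, -0.36 and -0.12. The 10 spp genes on autosomes had means of -0.59, -0.59 and -0.81. The lys minus spp difference was 0.54, 1.33 and 0.83, on average 0.90 ± 0.40 (SD, n = 3) or 1.86-fold. It lay between 0.72, without *lys-4*, and 1.18, without *lys-3*, when single genes were left out, and was positive on each array throughout. The ranges of the families overlapped on every array, from -2.87 to 1.43 for lys and from -2.06 to 0.75 for spp on prep 1. No p is given, since genes of a family are not replicates.

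**Figure D3:**
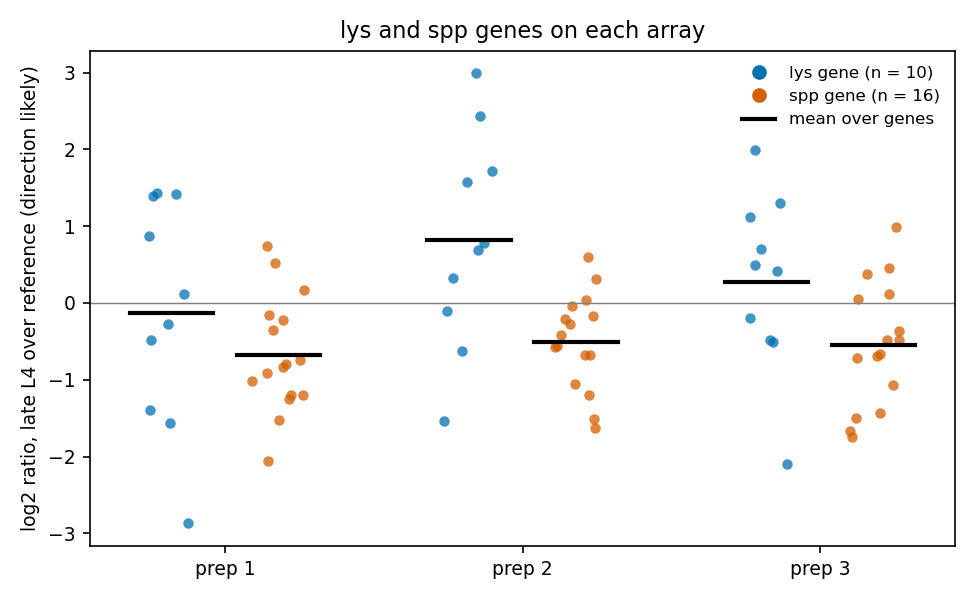
Log2 ratio of late L4 over reference (vertical axis) of the 10 lys and 16 spp genes on each of the 3 arrays; points are genes and black bars the means over genes. The lys mean lies above the spp mean on each prep, by 0.54, 1.33 and 0.83, and the points of both families overlap.

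Spread within a family was larger for lys than for spp. The SD over gene means was 1.23 log2 units for lys, 0.62 for spp and 0.81 for all rows. The 2 lys genes that fell lay at percentiles 0.8 (*lys-3*) and 8.4 (*lys-5*) of the mean log2 ratio over all rows, and the 5 that rose at percentiles from 90.0 to 97.3. Called genes lie toward the ends through the call itself. The lys genes that did not pass lay at percentiles 61.2 (*lys-6*), 19.9 (*lys-7*) and 59.3 (*lys-9*). Across the 31 members, the ratios of preps 1 and 2 had a Pearson r of 0.64, those of preps 1 and 3 one of 0.75, and those of preps 2 and 3 one of 0.84. The same coefficients over all rows were 0.70, 0.73 and 0.69. Within the 10 lys genes they were 0.66, 0.82 and 0.86, and within the 16 spp genes 0.47, 0.62 and 0.67. Every ratio shares the reference.

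Several members are neighbours on a chromosome (gene order from the RefSeq table of assembly WBcel235). Among members measured on all 3 arrays, there were 10 pairs with at most 2 protein-coding genes between them, 7 of them with 0. In 3 of the 10 pairs 1 gene was called higher and the other lower. Over all 31 members 22.6% were called higher and 25.8% lower, and neighbouring pairs of other genes were not examined. *lys-2* exceeded its neighbour *lys-3* by 4.29, 2.32 and 2.59 log2 units on preps 1, 2 and 3. That was 8.39-fold on average (3.07 ± 1.07, SD, n = 3), while *lys-1* and *lys-2*, the other adjacent pair there, differed by 0.05 ± 0.69 with a changing sign. *lys-4* exceeded *lys-5* by 2.81, 3.06 and 2.48, or 6.89-fold (2.78 ± 0.29).

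On chromosome X the order is *spp-3*, *spp-2*, *spp-6*, *spp-4* and *spp-5*, of which *spp-2* was not analysed here. *spp-6* minus the adjacent *spp-4* was -1.71, -2.12 and -2.06 log2 units on preps 1, 2 and 3. That was a 3.89-fold difference (-1.96 ± 0.22, SD, n = 3), and *spp-4* in turn lay above *spp-5* by 1.34, 1.02 and 0.94. *spp-3* and *spp-6*, both lower, differed by 0.12 ± 0.39. Whether similar copies share signal is not known, because the sources used here do not name the probe type and the members' sequences were not compared. The difference had the same sign on all 3 arrays in 8 of the 10 pairs. Several genes belong to more than a single pair, and the share over other pairs of genes was not examined. Of the spp genes, 6 lie on X, with a median of -0.43, and the 10 on autosomes had -0.52, beside -0.14 for all named genes on X and -0.02 for those on autosomes.

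**Figure D4:**
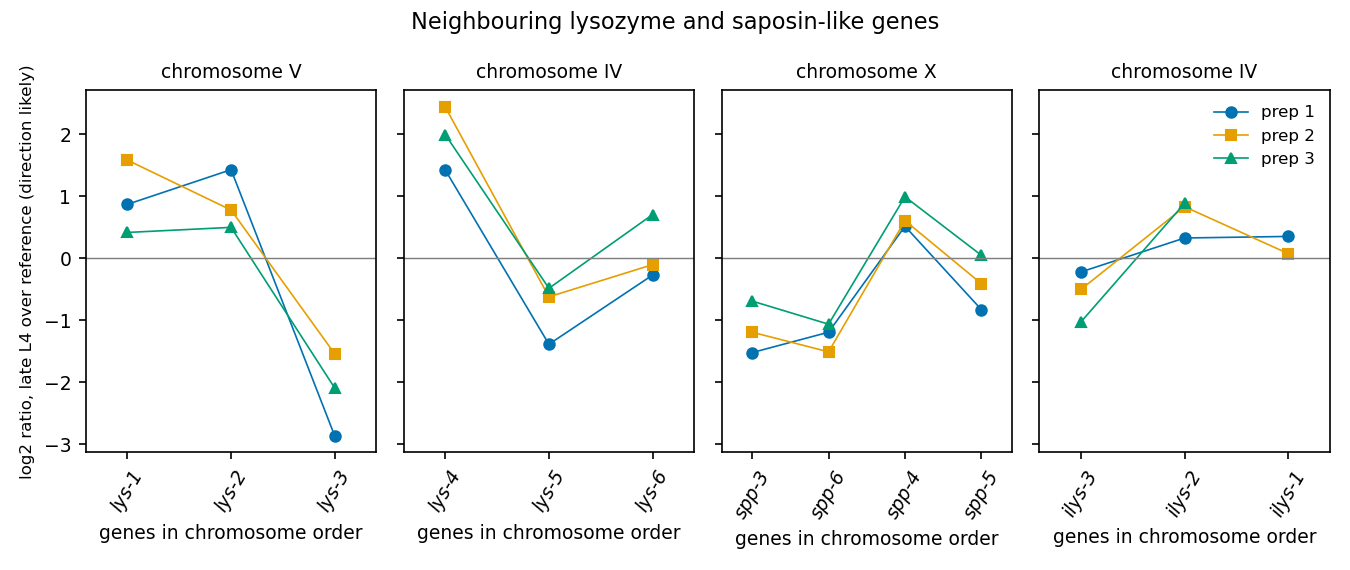
Log2 ratio of late L4 over reference (vertical axis) for members that lie beside each other, in chromosome order (horizontal axis, not to scale); colours and symbols are the 3 preps, and *spp-2*, between *spp-3* and *spp-6*, is not plotted. *lys-2* and *lys-3* differ by 4.29, 2.32 and 2.59 log2 units and *lys-4* and *lys-5* by 2.81, 3.06 and 2.48.

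Most genes that mark the intestine were higher. Of 10 such genes, 7 rose, each by at least 2-fold, and 0 fell (0 at an unadjusted p under 0.05), with a median of 1.62; 12% of all rows were higher. *pho-1*, an intestinal acid phosphatase gene, had log2 ratios of 1.96, 2.81 and 2.39 (5.24-fold higher; limma, adjusted p = 6.06e-06), and *act-5*, the actin gene of intestinal microvilli, had 2.52, 1.83 and 1.75 (4.10-fold; adjusted p = 2.71e-05). The GATA factor gene *elt-2*, a main regulator of intestinal genes, had 0.41, -0.13 and 0.17 and did not pass (adjusted p = 0.728). Beside these markers, 5 of 10 lys, 1 of 5 ilys and 1 of 16 spp genes were higher, against 12% of all rows. Lower were 2 of 10 lys, 0 of 5 ilys (2 at an unadjusted p under 0.05) and 6 of 16 spp genes, against 10.8%. The lists were chosen with earlier results of these data known.

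**Figure D5:**
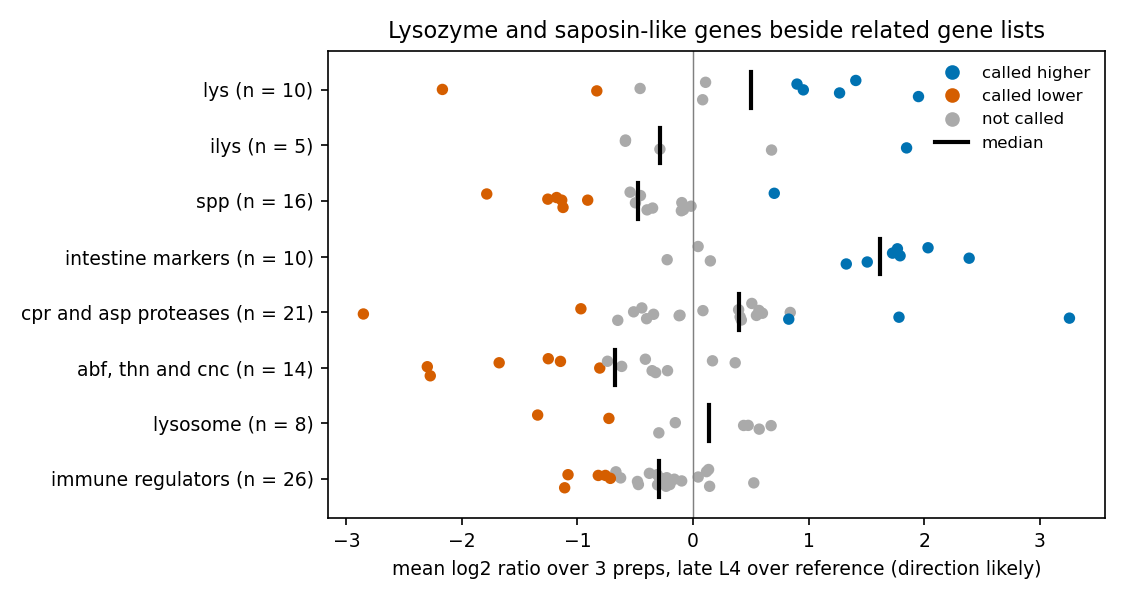
Mean log2 ratio over the 3 preps (horizontal axis) for the lys, ilys and spp genes and for 5 related lists; each point is a gene, coloured by its call in limma, and black bars are medians. The intestine markers have a median of 1.62, the lys genes 0.50, the spp genes -0.48 and the abf, thn and cnc genes -0.68.

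Other families of antimicrobial peptides and thaumatin-like proteins (abf, cnc and thn) were lower for 6 of 14 genes (42.9%, against 10.8% of all rows) and higher for 0 (0 at an unadjusted p under 0.05), with a median of -0.68. *cnc-2* and *cnc-1*, caenacin genes of the epidermal defence, were 4.92-fold and 4.84-fold lower (limma, adjusted p = 2.32e-05 and 3.36e-05). Of 21 cathepsin B-like (cpr) and aspartyl (asp) protease genes, many of which act in the gut, 3 rose (14.3%, against 12% of all rows) and 2 fell (9.52%, against 10.8%), with a median of 0.39; both shares are near those of all rows. *cpr-5* was 9.57-fold higher (adjusted p = 4.37e-07) and *cpr-2* 7.22-fold lower (adjusted p = 4.92e-06). Of 8 measured lysosome genes, 0 rose (2 at an unadjusted p under 0.05) and 2 fell, with a median of 0.14: *nuc-1*, a lysosomal DNase gene, was 2.54-fold lower (adjusted p = 0.000779), and *ctns-1*, the cystinosin gene, 1.66-fold (adjusted p = 0.0459), which no longer passed without prep 2 (adjusted p = 0.182) or prep 3 (adjusted p = 0.245) or under median centring (adjusted p = 0.0663).

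Regulators of these effectors included genes that fell. Of 26 genes of the p38, insulin and BMP-like pathways and related factors, 5 fell (19.2%, against 10.8% of all rows) and 0 rose (1 at an unadjusted p under 0.05), with a median of -0.30. The insulin pathway kinase genes *akt-2* and *akt-1* were 2.16-fold and 2.12-fold lower (limma, adjusted p = 0.00284 and 0.00367). *daf-16*, the forkhead factor gene of that pathway, had log2 ratios of -0.25, -0.68 and -0.51 and did not pass (adjusted p = 0.179).

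Markers of other tissues in the animals moved in both directions, beside 12% of all rows higher and 10.8% lower. Of 6 neuron markers 3 fell and 0 rose (median -0.88), with *ric-4* 3.17-fold and *rab-3* 2.32-fold lower. Of 5 muscle markers 2 rose and 0 fell (median 0.64), with *myo-3* 3.92-fold and *unc-15* 3.65-fold higher. Of 6 germ line markers 3 rose and 0 fell (median 0.83), with *glh-1* 4.46-fold and *pgl-1* 2.91-fold higher. Of 6 pharynx markers 1 rose and 1 fell (median 0.26), *tnt-4* at 2.09-fold higher and *tnc-2* at 3.24-fold lower. Of 6 epidermis markers 1 rose and 2 fell (median -0.44). The collagen gene *rol-6* was 1.95-fold higher (adjusted p = 0.0348, and 0.226, 0.214 and 0.0569 without prep 2, without prep 3 and under median centring). The furrow collagen gene *dpy-7* was 2.51-fold lower (limma, adjusted p = 0.00694, and 0.114 without prep 1). The counts of 0 in this paragraph are from limma and were also 0 at an unadjusted p under 0.05. Their part in the lys, ilys and spp values was not tested.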

How the data were processed

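The authors deposited 1 log2 ratio per feature and array; raising 2 to these values gave multiples of 0.001 (within 0.05 of a step) for 100% of values. The sources used here do not name the normalization, background correction, dyes or probe type, spot intensities were not analysed here, and depth does not apply; the number of arrays limits the precision. Values were used as deposited, with medians of 0.01, -0.10 and -0.06 on preps 1 to 3. Features with a value on every array were averaged within each gene, with symbols updated by Entrez ID (15569 of 15655 features with 1 symbol; 198 had several and 4147 none listed), giving 19292 rows, 15112 of them named genes. The mean ratio was tested against 0, two-sided, with limma 3.58.1 in R 4.3.3 (lmFit, eBayes; prior of 12.8 degrees of freedom, 2 residual), adjusted over all rows. The reference's own spread is left out. The procedure was tested on simulated data. Intervals are 95% limma intervals. The members and the 10 other lists were chosen with earlier results of these data known. Every member is named; of each list, the 2 called genes with the largest absolute mean are, plus *elt-2* and *daf-16*. Alternatives were centring, scaling, values on at least 2 arrays, robust or no moderation, features not averaged, stricter thresholds, updated symbols and leaving out each prep.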

Additional observations from a re-analysis of the deposited data

How the results depend on the processing

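No paired analysis was possible because there is 1 group of arrays and nothing to pair it with. How far signals lay above background is not known. Of 7 higher and 8 lower members, 3 and 6 passed at an adjusted p under 0.01 (1632 and 1217 of all 19292 rows). At 2-fold or more, 4 and 6 passed (8.6% and 6.05% of all rows). With any single prep left out, 4 to 5 members were higher and 5 to 9 lower, with fewer arrays fitted. Of all rows, 1793 to 2047 were then higher and 1340 to 1768 lower. Of the 15 called genes, 7 kept their call each time. With each gene's own variance limma called 0 and 0 members and 0 of all 19292 rows, since 2 degrees of freedom remained. Then 4 higher and 6 lower members had an unadjusted p under 0.05, beside 1874 higher and 2340 lower of all rows. The lys minus spp difference stayed between 0.68 and 1.08 under all its alternatives. Median centring shifts both families alike and updated symbols gave the same genes, so these alternatives could not move it. Of 341 member values under alternatives, 14 changed sign, in genes that were not called. The 341 include settings that left every member's mean as it was, so that no sign could change. These were the stricter thresholds, robust moderation, no moderation and features not averaged. With a single prep left out, means ran from -0.19 to 0.30 for *lys-6*, from -1.03 to 0.093 for *lys-7*, from -0.48 to 0.065 for *lys-9*, from -0.52 to 0.19 for *spp-12*, from -0.35 to 0.38 for *spp-13*, from -0.23 to 0.14 for *spp-16* and from -0.22 to 0.11 for *spp-19*. Under median centring *spp-19* was at 0.032, and under centring with scaling *spp-13* was at 0.021 and *spp-19* at 0.052. With features on at least 2 arrays *lys-9* was at -0.39. In that setting, and without prep 3, the second *lys-9* feature, measured on preps 1 and 2 only, entered the average. The cause of the other sign changes was not tested.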

Other observations

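One feature is annotated to both K09F5.6 and *spp-14* and was counted under neither. Its log2 ratios were -1.14, -0.58 and -0.75 on preps 1, 2 and 3, all below 0.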
